A study of Sus scrofa with 12 samples.

Results

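The genes described here are 10 members of the phospholipase and prostaglandin pathway, among the 25880 genes listed in the count tables of longissimus dorsi muscle, the loin muscle, of Iberian pigs. They were chosen by symbol, because functional terms of the study name prostaglandin secretion, and each of the 10 had a row in the tables. RNA of 12 castrated male pigs was sequenced with 1 library per pig. The 6 pigs of the High MB group had the highest and the 6 pigs of the Low MB group the lowest estimated breeding values for muscle myoglobin (MB), with full siblings avoided. Breed, sex, season and free-range fattening on acorns and grass were shared by both groups, and no agent or transgene was used. Measured myoglobin ran from 2.376 to 2.559 mg/g of muscle in the High MB pigs, against 1.226 to 1.58 mg/g in the Low MB pigs. A difference between these groups is therefore one between pigs that differed in breeding value and in measured myoglobin at once.

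Prostaglandins are lipid signals made from arachidonic acid. Phospholipases A2 cut fatty acids such as arachidonic acid from membrane phospholipids, the cyclooxygenases convert it to prostaglandin H2, and a synthase then makes each final product: prostaglandin E2, prostaglandin D2 or prostacyclin. Phospholipases D release phosphatidic acid, which other enzymes turn into diacylglycerol, and the P2X7 receptor is a channel opened by extracellular ATP that can set off lipid release and inflammasome activity in macrophages. In muscle these signals are known for their part in blood flow, inflammation and regeneration, and much of their machinery is found in cells between the fibres.

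PLA2G10 encodes a secreted phospholipase A2. Its symbol is absent from the RefSeq annotation of Sscrofa11.1, in which the gene is LOC110259864 on chr3:7623326-7641061, plus strand, with 4 exons, a transcript of 613 bases and 480 coding bases. The primers that the study designed for quantitative PCR of PLA2G10 are shown because they were designed for this gene and can be placed at that locus. The forward primer crosses the junction of exons 1 and 2, with 4 of its bases in exon 1 and 16 in exon 2, and the reverse primer lies in exon 2. In the unspliced genome all 20 bases of the forward primer match at another place, within the gene EMCN on chromosome 8, while the reverse primer matches at LOC110259864. Read along the spliced RefSeq transcript, they bound 74 coding bases, in which capitals mark the primer sites. Exon 1 ends at base 7623477 and exon 2 begins at base 7627350 of the chromosome.
PLA2G10 forward primer: gcagcttcccaaaggtcaca
PLA2G10 reverse primer: gtgccaacgcaattcacagt
PLA2G10 amplicon, chr3:7623474-7627419 without the intron: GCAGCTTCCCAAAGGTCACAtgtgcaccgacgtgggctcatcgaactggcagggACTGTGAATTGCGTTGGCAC

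The other members lie, in RefSeq's annotation of the same build, on 6 chromosomes and an unplaced sequence. PLD1 is on chr13:110152268-110376319, PLD2 on chr12:52073913-52087804, PTGIS on chr17:51153151-51200515 and P2RX7 on chr14:31415188-31476502, all on the minus strand. PTGS1 (chr1:262456106-262482159, plus strand) and PTGES (chr1:269911785-269924481, minus strand) share a chromosome, and PTGDS is on the unplaced sequence. PLA2G4A (chr9:127853581-128164825, plus strand) and PTGS2 (chr9:127850164-127858866, minus strand) are neighbours whose ends overlap by 5286 bases, with 108 bases exonic in both, which is 1.55% of the exon bases of PLA2G4A and 2.99% of those of PTGS2. P2RX7 overlaps IFT81 on the other strand by 50955 bases but shares 0 exon bases with it. PLA2G10 shares 110 exon bases, 17.9% of its own, with a long non-coding RNA on the other strand, LOC110259865. The strand setting of the counting is not given in the sources used here, so reads from such shared bases cannot be assigned to one strand.

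The libraries held 38914271 to 91318334 gene counts. A deep class of 5 libraries (pigs 4 and 6 of the High MB group, pigs 1, 5 and 6 of the Low MB group) lay above 50000000 counts, and 7 standard libraries held no more than 40001432. No library repeated another: over the 66 pairs, chi-square per degree of freedom of the gene counts was at least 41.1. On the first principal component, which held 23.6% of the variance, High MB pig 2 (-71.1) and Low MB pig 4 (-37.7) lay at one end and Low MB pig 1 (38.3) at the other. Results that rest on one of these pigs are given without it. The muscle label was checked with ACTA1, CKM, TNNT3 and DES, which together held 37732 to 85401 CPM (counts scaled to library size after TMM factors) in the High MB group and 64150 to 114590 CPM in the Low MB group. The lowest sum was that of High MB pig 2, against a median of 77213 CPM in its group. Of the epithelial markers, EPCAM had at most 11 counts in any pig, KRT18 at most 32, CDH1 15 to 296 and KRT8 35 to 253. The myoglobin gene itself was not analysed here.

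The 10 members were weakly to moderately expressed. Compared per length, as CPM per kilobase of RefSeq exon, PTGIS (prostacyclin synthase) was the highest at 4.42 ± 1.59 (SD, n = 12). PLA2G10 followed at 2.26 ± 1.01, PTGS1 (cyclooxygenase 1) at 1.33 ± 0.378 and PLD2 at 1.13 ± 0.302 CPM per kilobase. Lower levels were measured for PTGES (microsomal prostaglandin E synthase, 0.453), P2RX7 (0.356), PTGS2 (cyclooxygenase 2, 0.189), PTGDS (prostaglandin D synthase, 0.133), PLD1 (0.124) and PLA2G4A (cytosolic phospholipase A2, 0.119). In this order the constitutive cyclooxygenase gene came before the inducible one, and the secreted phospholipase A2 before the cytosolic one.

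**Figure D1:**
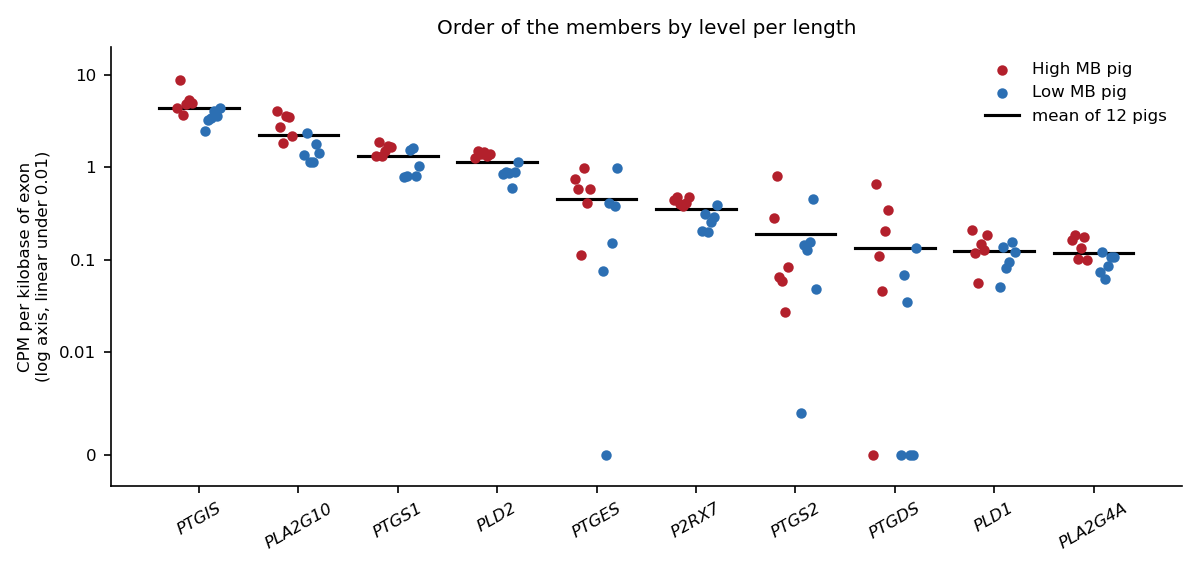
Level of each member in each pig, in CPM per kilobase of RefSeq exon on a logarithmic axis that is linear under 0.01, with High MB pigs in red, Low MB pigs in blue and a line at the mean of the 12 pigs. PTGIS leads at 4.42 CPM per kilobase, and the pigs spread most for PTGS2, PTGES and PTGDS.

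Neighbours in this order were compared within the 12 pigs by an exact sign-flip test, with Benjamini-Hochberg adjustment over the 9 pairs of neighbours. PTGIS was above PLA2G10 in 12 of 12 pigs (exact adjusted p = 0.00220), PLA2G10 above PTGS1 in 10 of 12 (exact adjusted p = 0.0176) and PLD2 above PTGES in 12 of 12 (exact adjusted p = 0.00220). The other 6 pairs did not differ beyond their spread. P2RX7 was above PTGS2 in 10 of 12 pigs, with an exact adjusted p of 0.0659 by all exon bases and 0.0494 by the longest RefSeq transcript. By the longest transcript the last places were PLA2G4A, PLD1 and PTGDS. In mean CPM not divided by length, PLA2G10 (1.38) lay below PLD2 (4.02), PTGS1 (3.54), P2RX7 (2.34) and PLD1 (1.71). Its place in the order therefore rests on its RefSeq transcript of 613 bases, which both measures of length use. The sign-flip tests take the lengths as given and do not cover error in them. The lengths are those of RefSeq, and the annotation release used for counting is not given in the sources used here.

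The group question was which of these genes differed in muscle between pigs of high and low breeding value for myoglobin. For the 9 members that passed edgeR's filter on low counts, the fitted log2 fold change (High MB over Low MB) lay above 0, between 0.40 and 0.96, with a median of 0.63. Over all 13373 genes tested the median was -0.02, and 46.9% of genes lay above 0. With the limits of the study (Benjamini-Hochberg adjusted p under 0.10, log2 fold change over 0.58 in size), edgeR's quasi-likelihood test called 0 of the 9 members and 0 of all genes (0%), and the smallest adjusted p of any gene was 0.563. At an unadjusted p under 0.05, 6 of the 9 members were higher in the High MB group and 0 were lower, where 5.33% of all genes tested were higher and 3.13% lower. DESeq2, the tool of the study, called 1 member, PLD2, among 27 genes higher in the High MB group, which is 0.141% of the genes it tested. PLA2G10, PLD2 and P2RX7 are on the study's own list of differentially expressed genes, drawn from these same pigs, and their difference here is no independent evidence of that direction. PTGDS, the member left out by the filter, had 0 to 23 counts per pig.

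**Figure D2:**
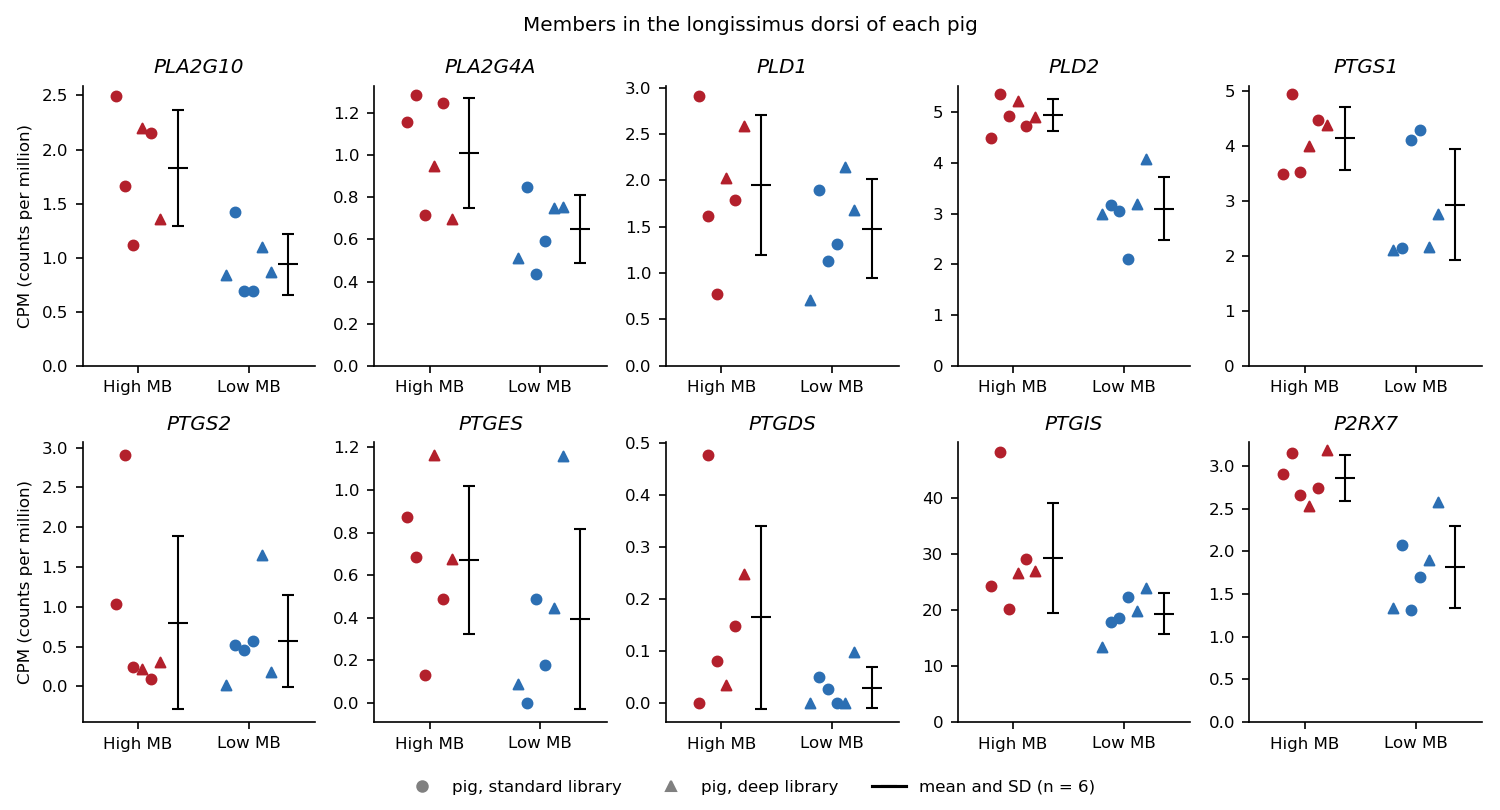
CPM of each member in each pig of the High MB group (red) and the Low MB group (blue), with the mean and SD of the 6 pigs beside them, circles for standard and triangles for deep libraries. For PLD2 the 6 High MB pigs lie between 4.50 and 5.36 CPM, above the 6 Low MB pigs, which lie between 2.11 and 4.07 CPM.

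Among the phospholipases, the difference that separated the groups fully was that of PLD2. PLD2 was 4.50, 4.92 and 5.36 CPM (lowest, median and highest pig) in the High MB group and 2.11, 3.11 and 4.07 CPM in the Low MB group. The groups did not overlap, with the lowest High MB pig above the highest Low MB pig, which was so for 31 of the 13373 genes, or 0.232%. Its log2 fold change was 0.67 ± 0.16 (SE), with an unadjusted edgeR p of 0.000700 and an edgeR Benjamini-Hochberg adjusted p of 0.563. The exact permutation test gave p = 0.00216, the smallest that 6 pigs against 6 can give. DESeq2's adjusted p was 0.0250, while the adjusted p ran from 0.345 to 0.765 over the edgeR alternatives. The pigs of the High MB group were close to each other, with a coefficient of variation of 6.36% against 20.2% in the Low MB group.

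PLD1, the other classical phospholipase D gene, overlapped between the groups. It was 0.769, 1.91 and 2.91 CPM in the High MB group and 0.705, 1.49 and 2.15 CPM in the Low MB group. Fitted by edgeR, its log2 fold change was 0.40 ± 0.33 (SE), and the test by regrouping gave an exact permutation p of 0.331. High MB pig 3 had the lowest value of its group, and leaving it out gave a log2 fold change of 0.56, while leaving out Low MB pig 1 gave 0.26. The log2 ratio of PLD2 to PLD1 was 1.43 ± 0.70 in the High MB group and 1.11 ± 0.56 in the Low MB group (SD, n = 6). These differed by 0.32, with an exact permutation p of 0.403 (0.604 adjusted over 3 ratios). That difference was 0.48 without High MB pig 1, 0.085 without High MB pig 3, 0.51 without Low MB pig 1 and 0.21 without Low MB pig 5. The larger fold change of PLD2 was therefore not shown to differ from that of PLD1.

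PLA2G10 had the largest fitted difference of the 9 members over all 12 pigs without covariates. The order depended on the setting, for example that of PTGES was larger with the depth class as covariate (1.02 against 0.96) and without Low MB pig 6 (1.48 against 0.94), and that of PTGS2 without Low MB pig 5 (1.23). Its CPM was 1.11, 1.91 and 2.50 in the High MB group and 0.693, 0.853 and 1.43 in the Low MB group. The ranges overlapped, with 4 of 6 High MB pigs above every Low MB pig and 5 of 6 Low MB pigs below every High MB pig. The log2 fold change was 0.96 ± 0.27 (SE), the unadjusted edgeR p 0.00289 and the exact permutation p 0.00866. It rests on 27 to 132 counts per pig. DESeq2 gave an adjusted p of 0.112, and edgeR's adjusted p was 0.563 and ran from 0.363 to 0.765 over its alternatives.

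PLA2G4A encodes the calcium-dependent cytosolic enzyme that prefers arachidonic acid. It was 0.699, 1.05 and 1.29 CPM in the High MB group and 0.436, 0.670 and 0.850 CPM in the Low MB group, so 4 of 6 High MB pigs exceeded the top of the Low MB range. On 17 to 65 counts per pig, its log2 fold change was 0.63 ± 0.27 (SE) and the exact permutation p 0.0260. With High MB pig 2 left out together with Low MB pig 4, the exact permutation p was 0.0873. The log2 ratio of PLA2G10 to PLA2G4A was 0.82 ± 0.31 in the High MB group and 0.49 ± 0.23 in the Low MB group (SD, n = 6). These differed by 0.33, with an exact permutation p of 0.0649 (0.195 adjusted over 3 ratios).

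The cyclooxygenase genes differed in how they varied among pigs. PTGS1, the constitutive gene, was 3.50, 4.19 and 4.94 CPM in the High MB group and 2.12, 2.47 and 4.30 CPM in the Low MB group. Low MB pigs 3 and 4, at 4.10 and 4.30 CPM, lay within the High MB range, while the other 4 Low MB pigs lay below all High MB pigs. PTGS1 had a log2 fold change of 0.50 ± 0.21 (SE) and an exact permutation p of 0.0368. Leaving out 1 pig moved that exact p over 0.05 for 7 of the 12 pigs (pigs 2, 5 and 6 of the High MB group and pigs 1, 2, 5 and 6 of the Low MB group), with a highest value of 0.0671.

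PTGS2, the inducible gene, spanned a 198-fold range over the 12 pigs, from 1 to 140 counts. Its CPM was 0.0978, 0.270 and 2.91 in the High MB group and 0.0147, 0.493 and 1.65 in the Low MB group, so the median was higher in the Low MB group while the mean was higher in the High MB group. The coefficient of variation was 136% in the High MB group and 101% in the Low MB group. Its fold change had a wide error, 0.49 ± 0.86 on the log2 scale (SE), and its exact permutation p was 0.777. High MB pig 2 carried the direction: without it the log2 fold change was -0.60. The log2 ratio of PTGS2 to PTGS1 was -3.15 ± 1.59 in the High MB group and -2.88 ± 1.67 in the Low MB group (SD, n = 6), with an exact permutation p of 0.784, also after adjustment over 3 ratios. The sign of that difference turned when High MB pig 5 or Low MB pig 5 was left out, to 0.11 and 0.23.

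Of the terminal synthases among the members, PTGIS had the most counts, 716 to 2506 per pig. It was 20.1, 26.8 and 48.1 CPM in the High MB group and 13.4, 19.2 and 23.9 CPM in the Low MB group. High MB pig 3 lay within the Low MB range, and the other 5 High MB pigs lay above it. PTGIS had a log2 fold change of 0.60 ± 0.19 (SE), an unadjusted edgeR p of 0.00790 and an exact permutation p of 0.00866. High MB pig 2 had the highest value, and without it the log2 fold change was 0.41 and the exact permutation p 0.0260.

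PTGES, which makes prostaglandin E2 and is inducible, was low and variable. It was 0.133, 0.681 and 1.16 CPM in the High MB group and 0, 0.313 and 1.16 CPM in the Low MB group, the 0 of Low MB pig 2 allowing up to 0.0750 CPM (3 counts). The groups overlapped over nearly their whole range, and the log2 fold change of 0.75 ± 0.70 (SE) had an exact permutation p of 0.160. Low MB pig 6 had the highest value of its group, and without it the log2 fold change was 1.48 and the exact permutation p 0.0519.

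PTGDS was close to the limit of detection. It was 0, 0.113 and 0.478 CPM in the High MB group and 0, 0.0128 and 0.0966 CPM in the Low MB group, with 0 counts in High MB pig 1 and in Low MB pigs 1, 4 and 5. A count of 0 allowed up to 0.0772 CPM in High MB pig 1 and between 0.0441 and 0.0772 CPM in those Low MB pigs. The exact permutation test gave p = 0.0823, and that exact p fell under 0.05 when High MB pig 1 (0.0216) or Low MB pig 6 (0.0498) was left out. Fitted without the filter, PTGDS had an unadjusted edgeR p of 0.0342 and an edgeR Benjamini-Hochberg adjusted p of 0.590, and DESeq2 gave it no adjusted p. The difference in PTGDS was thus not called by either tool.

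P2RX7 was 2.53, 2.82 and 3.18 CPM in the High MB group and 1.31, 1.80 and 2.58 CPM in the Low MB group. High MB pig 4, at 2.53 CPM, and Low MB pig 6, at 2.58 CPM, were the only pigs whose values crossed. The log2 fold change was 0.66 ± 0.20 (SE), with an unadjusted edgeR p of 0.00461 and an exact permutation p of 0.00433. DESeq2 gave an adjusted p of 0.138, and edgeR's adjusted p was 0.563 and ran from 0.345 to 0.765 over its alternatives. As for PLD2, the High MB pigs were close to each other, with a coefficient of variation of 9.40% against 26.5% in the Low MB group. IFT81, the ciliary transport gene on the other strand within P2RX7, was 4.54 ± 1.39 CPM in the High MB group and 4.78 ± 1.75 CPM in the Low MB group (SD, n = 6), with a log2 fold change of -0.08 ± 0.27 (SE).

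The differences were next computed within the classes of library depth, as differences in mean log2 CPM of 2 High MB and 3 Low MB pigs (deep) and of 4 High MB and 3 Low MB pigs (standard). On this scale all 10 members had a difference above 0 in both classes. PTGIS (0.53 deep, 0.56 standard), PLA2G10 (0.87 and 0.98), P2RX7 (0.59 and 0.77) and PLD2 (0.57 and 0.82) had differences over 0.5 in both, as had the low-count members PTGES (1.15 and 1.59) and PTGDS (1.30 and 1.27). The values lay further apart for PTGS1 (0.83 and 0.27), PLD1 (0.73 and 0.17) and PLA2G4A (0.28 and 0.79), and were 0.13 and 0.08 for PTGS2. The sign for PTGS2 in the deep class depended on the scale: its CPM was 0.216 and 0.301 in the High MB pigs and 0.0147, 0.177 and 1.65 in the Low MB pigs, where the lowest value is 1 count, so the mean CPM was lower in the High MB group. In the edgeR fit the difference between the classes was largest for PTGS2, 2.28 ± 1.82 (SE) on the log2 scale, with an unadjusted edgeR p of 0.231. In mean log2 CPM, by contrast, the values of PTGS2 in the classes lay close together. The interaction of group and depth class was called for 0 of the 13373 genes (0%) by edgeR with Benjamini-Hochberg adjustment, and its smallest unadjusted p among the members was 0.159, that of PTGS1.

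**Figure D3:**
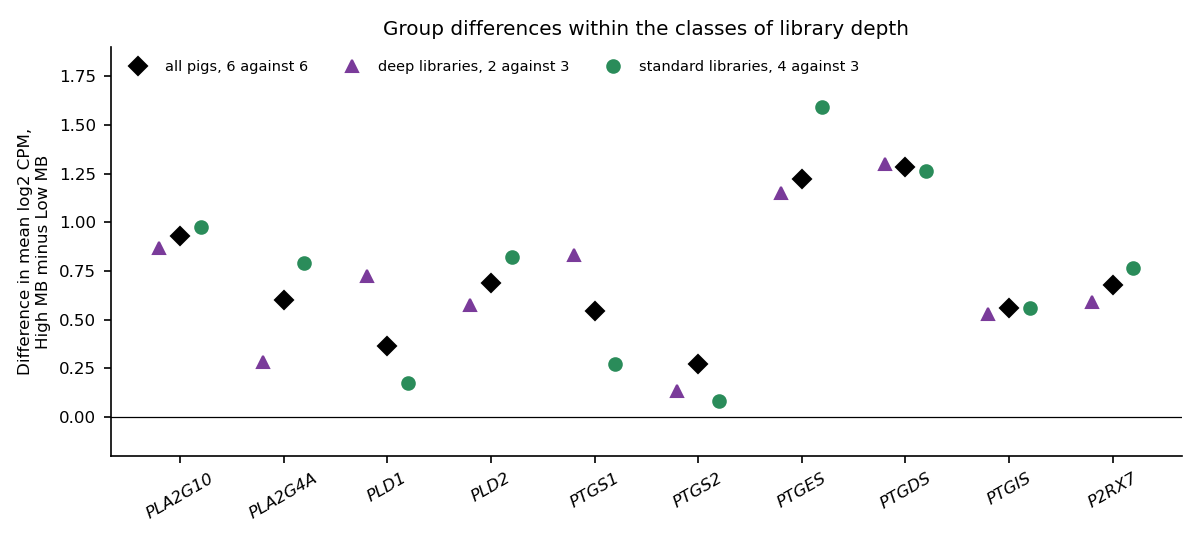
Difference between the groups in mean log2 CPM for each member, over all 12 pigs (diamonds), within the 5 deep libraries (triangles) and within the 7 standard libraries (circles). The 30 points lie above 0 on this scale, from 0.08 for PTGS2 to 1.59 for PTGES, but by mean CPM PTGS2 in the deep libraries was lower in the High MB group.

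The rest of the pathway was read from lists of related genes, which were chosen with earlier results of these data known. No gene of the 8 lists was called by edgeR, none had an unadjusted p under 0.05 with a lower level in the High MB group, and every count below is of unadjusted edgeR p-values under 0.05, which 5.33% of all genes tested had with a higher and 3.13% with a lower level in the High MB group. Of the phospholipase A2 list, 8 of the 17 genes with a row were tested, with a median log2 fold change of 0.09, and PLA2G10 and PLA2G4A were the 2 that passed. PLA2G7, the plasma platelet-activating factor acetylhydrolase and the gene of that list with the highest CPM, was 20.6 ± 5.91 CPM in the High MB group and 22.6 ± 13.0 CPM in the Low MB group (SD, n = 6). The secreted enzymes PLA2G2A, PLA2G2E and PLA2G2F had 0 counts in every pig, and PLA2G10 was the only secreted phospholipase A2 on the list, apart from PLA2G7, that passed the filter. Of the phospholipase D list 4 genes were tested, and PLD2 alone passed. PLD3, a lysosomal member, was the highest of these in CPM, at 36.1 ± 7.82 CPM in the High MB group and 33.1 ± 3.69 CPM in the Low MB group (SD, n = 6).

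Among the cyclooxygenases and prostanoid synthases, 8 of 11 genes were tested, with a median log2 fold change of 0.49, and PTGS1 and PTGIS passed. PTGES3, also known as p23, a chaperone partner that has prostaglandin E synthase activity, had the highest CPM of the list, 156 ± 35.0 in the High MB group and 197 ± 46.9 in the Low MB group (SD, n = 6). Its log2 fold change of -0.34 ± 0.18 (SE) lay on the other side of 0, with an unadjusted edgeR p of 0.0764.

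Downstream of the synthases, 2 of the 7 prostanoid receptors tested passed. PTGER2, a prostaglandin E2 receptor, was 1.55 to 3.62 CPM in the High MB group and 1.52 to 2.41 CPM in the Low MB group, with a log2 fold change of 0.53 ± 0.22 (SE). PTGFR, the prostaglandin F receptor, was 1.67 to 3.49 CPM and 1.18 to 2.59 CPM, with 0.56 ± 0.24 (SE). PTGER4, the receptor with the highest CPM, was 1.59 to 5.38 and 1.03 to 3.55 CPM and did not pass (0.52 ± 0.39, SE). The ranges of all these receptors overlapped between the groups.

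Of the 5 transport and breakdown genes tested, SLCO2A1, the prostaglandin transporter, was the 1 that passed, with a log2 fold change of 0.56 ± 0.24 (SE). The gene of that list with the highest CPM, PTGR2, a prostaglandin reductase, was 38.1 ± 5.69 CPM in the High MB group and 44.7 ± 11.5 CPM in the Low MB group (SD, n = 6). Of 7 lipoxygenase and leukotriene genes tested, ALOX5AP, which presents arachidonic acid to 5-lipoxygenase, passed at 0.79 ± 0.32 (SE), while LTA4H, the leukotriene A4 hydrolase and the highest of these in CPM, had a log2 fold change of -0.16 ± 0.11 (SE). Of 8 P2X receptor and inflammasome genes tested, P2RX7 was the 1 that passed. P2RX5, the highest of that list in CPM, was 334 ± 92.1 CPM in the High MB group and 292 ± 73.1 CPM in the Low MB group (SD, n = 6), with a log2 fold change of 0.20 ± 0.20 (SE).

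Annexins bind phospholipids, and annexin A1 is known as an inhibitor of phospholipase A2 activity. All 4 genes of the annexin list were tested and 3 passed, ANXA1 (0.64 ± 0.21, SE), ANXA2 (0.88 ± 0.24, SE) and ANXA5 (0.47 ± 0.19, SE). ANXA2 had the highest CPM of the list, 71.1 to 216 in the High MB group and 43.7 to 85.4 in the Low MB group. Each gene named as the highest of its list in CPM was also the highest per kilobase among the genes of that list with a RefSeq length.

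**Figure D4:**
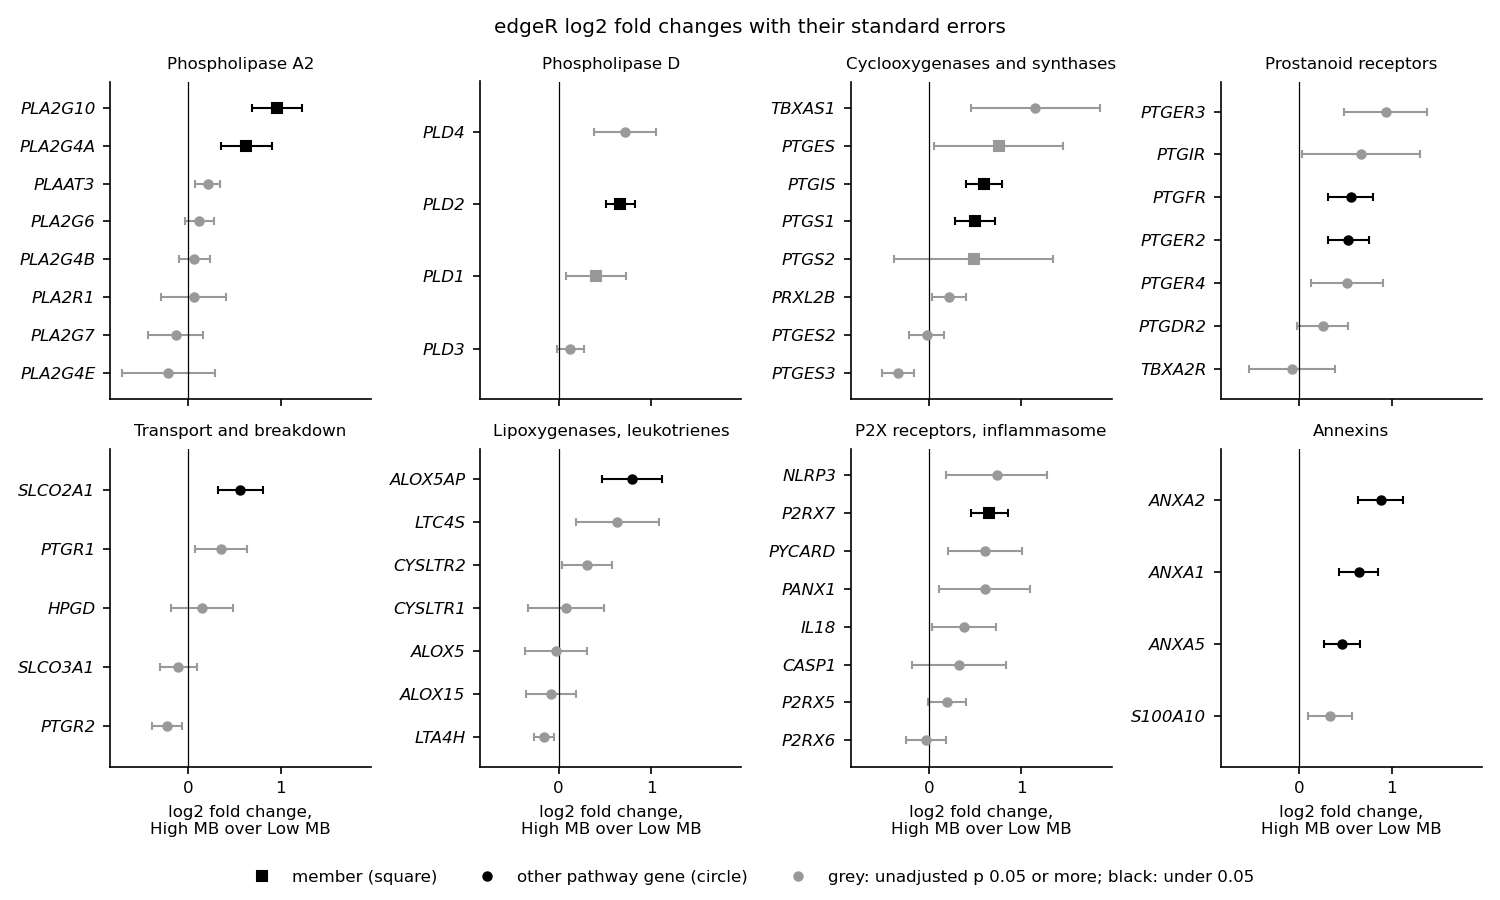
edgeR log2 fold change of each tested gene of the 8 pathway lists, High MB over Low MB, with its standard error as a bar, squares for members and circles for other genes, black where the unadjusted p was under 0.05. Every black point lies to the right of 0, from 0.47 for ANXA5 to 0.96 for PLA2G10.

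In bulk muscle, more cells of a type and more RNA of a gene per cell cannot be told apart, and the levels of marker genes of cells between the fibres are therefore given beside the members. None of these markers was called by edgeR. All 9 macrophage markers had log2 fold changes above 0, with a median of 0.93, and 7 had an unadjusted edgeR p under 0.05 (5.33% of all genes tested, in that direction). Their summed level was 66.2 to 151 CPM in the High MB group and 31.8 to 76.9 CPM in the Low MB group, and the group means differed 1.72-fold. Of 6 fibroblast markers 6 were above 0 and 3 had an unadjusted p under 0.05, with sums of 630 to 1118 CPM and 326 to 828 CPM. Of 6 adipocyte markers 5 were above 0 and 2 passed, with sums of 108 to 361 CPM and 96.9 to 266 CPM. The erythroid markers HBB and ALAS2 were above 0 and passed, while AHSP and SLC4A1 had too few counts to be tested, with sums of 66.7 to 146 CPM and 38.4 to 84.4 CPM.

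Markers of further cell types were also summed. None of the 5 endothelial markers had an unadjusted edgeR p under 0.05 (sums of 127 to 175 CPM in the High MB group and 78.1 to 192 CPM in the Low MB group), nor did any of the 6 smooth muscle and pericyte markers (201 to 893 and 174 to 459 CPM) or the 5 T and NK cell markers (1.54 to 4.21 and 1.15 to 3.45 CPM). Of the 4 mast cell markers tested 1 passed, with sums of 5.75 to 9.25 and 3.20 to 7.49 CPM, and the 4 epithelial markers summed to 2.28 to 6.50 and 2.19 to 5.17 CPM, with none of the 2 tested under 0.05. The 4 platelet markers summed to 0.616 to 1.80 and 0.779 to 1.20 CPM, with PPBP at no more than 14 counts in any pig. When High MB pig 2 was left out together with Low MB pig 4, the mean macrophage sums differed 1.62-fold. Their own macrophage sums were 151 and 73.0 CPM, both high for their groups. Leaving out High MB pig 2 alone was not computed and would give a smaller ratio, and the marker tests were not read without it. The part of these cell types in the differences of the members was not tested.

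How the members varied together, apart from the group, was examined on log2 CPM with the group means removed. Of the 36 pairs of the 9 members, none passed an adjusted p of 0.05 by the exact permutation of pairings within groups. The closest pair was PLA2G10 and PLA2G4A, with Pearson's r = 0.77 (exact permutation p = 0.00974, 0.267 adjusted) and Spearman's rho = 0.78 (exact permutation p = 0.00877, 0.259 adjusted). Its r was 0.73 within the High MB group and 0.81 within the Low MB group, and 0.67 without the 2 pigs farthest from the median of PLA2G10. PTGS1 and PTGIS had r = 0.52 and rho = 0.66, with an exact permutation p of 0.0353 for r (0.267 adjusted). PTGS2 and PTGIS had r = 0.59 over the 12 pigs and 0.02 without the 2 pigs farthest from the median of PTGS2, so that relation rested on those pigs. The lowest value was that of PLA2G10 and PTGS1, r = -0.48, with r = -0.02 within the High MB group and -0.78 within the Low MB group, and r = -0.26 over the 12 pigs without TMM factors.

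**Figure D5:**
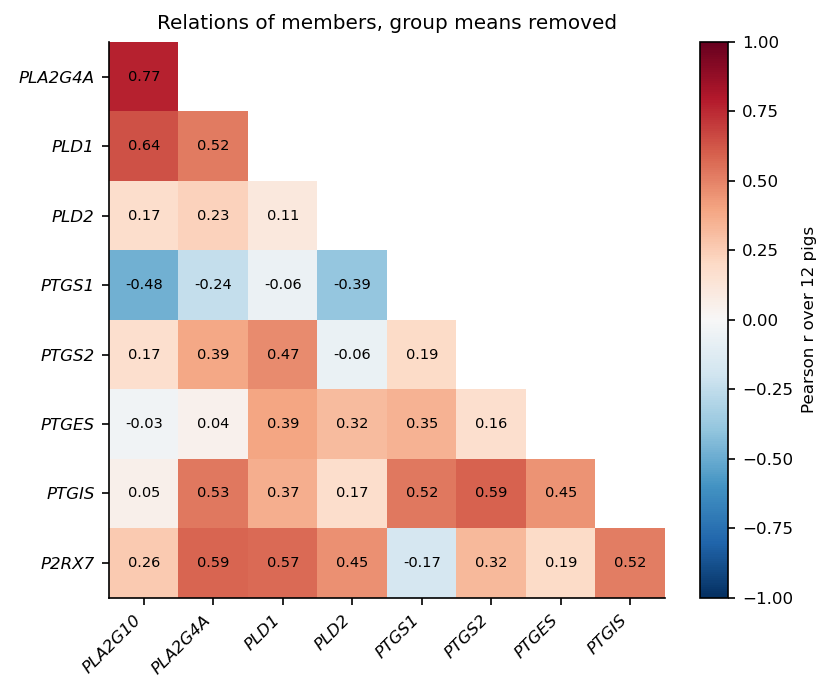
Pearson's r of log2 CPM between members over the 12 pigs after removal of the group means, from blue (-1) to red (1). The largest value is 0.77, for PLA2G10 and PLA2G4A, and the lowest is -0.48, for PLA2G10 and PTGS1.

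Within each group the members were compared with the measured myoglobin content of the 6 pigs, since the groups form separate clusters of myoglobin content. None of the 18 relations of 9 members passed an adjusted p of 0.05. By Pearson's r the lowest p was that of PLA2G4A in the Low MB group, with r = -0.91 (exact permutation p = 0.0222, 0.317 adjusted). Its rho was -0.94 (exact permutation p = 0.0167, 0.150 adjusted), and its r was -0.76 without the 2 farthest pigs. P2RX7 followed with r = -0.85 (exact permutation p = 0.0389, 0.317 adjusted) and rho = -0.89, and its r in the High MB group was -0.72, of the same sign, but -0.17 without the 2 farthest pigs and -0.43 without TMM factors. PLA2G10 had r = -0.80 (exact permutation p = 0.0528, 0.317 adjusted) in the Low MB group. Its rho there, -0.94, shared the lowest p by rho with PLA2G4A (exact permutation p = 0.0167, 0.150 adjusted). In the High MB group PLA2G10 had r = 0.67 and rho = 0.77. The signs of PLA2G10 and PLA2G4A (r = 0.60 in the High MB group) were thus opposite within the groups, and in the Low MB group they ran against the direction of the difference between the groups.

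For each member the gene with a symbol whose log2 CPM followed it most closely over the 12 pigs was searched among 11353 genes. The result is a description only. The highest of so many correlations over 12 pigs can be high for unrelated genes, and the group difference adds to it. IQGAP2 was closest to PLA2G4A (r = 0.96) and ARPC5, an actin-nucleating subunit, to PTGIS (r = 0.96), and both kept r = 0.97 and 0.96 with the group means removed. TMED8 was closest to PTGS2 (0.93), ABCG2A to P2RX7 (0.92), the interferon-induced gene IFI44 to PLD2 (0.92) and FNDC1 to PLA2G10 (0.91). YES1 was closest to PTGES (0.89), KCNK2 to PTGS1 (0.89) and CAMK2N1 to PLD1 (0.88). The value for PLA2G10 and FNDC1 was 0.77 with the group means removed, and for PLD2 and IFI44 it was 0.83. The 9 members had 9 different closest genes, which such a search can also give for unrelated genes.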

How the data were processed

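Paired reads of 150 bp from longissimus dorsi libraries were, per the labels and the study's methods, trimmed with Trim Galore, aligned to Sscrofa11.1 with HISAT2 and counted with HTSeq. The authors deposited raw counts per gene for each pig, with no normalization. The annotation release, strand and overlap settings of the counting are not given in the sources used here. Of the uniquely aligned reads, 47.0% to 48.2% per pig were counted on a gene, and the summary lines were kept out of the tests. The deposited counts per transcript were not used here.

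Pigs were grouped by the group and individual number in the labels. The members and the lists of related genes were chosen with earlier results of these data known. Named were all members, listed pathway genes with an unadjusted p under 0.05, the most abundant gene of each list and the gene most like each member.

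Counts were normalized by TMM and tested with edgeR 4.0.16 (filterByExpr, quasi-likelihood test) in R 4.3.3, High MB against Low MB, with no covariate, and with DESeq2 1.42.0 as an alternative. CPM uses TMM factors, and log2 CPM a prior count of 2. The standard error of a log2 fold change comes from the test statistic. Single values were compared by exact two-sided permutation over the 924 regroupings of the pigs, and the scripts were tested on simulated data. Each pig is a separate animal. Floors of 3 counts cover counting error only. Levels per length and the exact tests without single pigs were added after the data were seen.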

Additional observations from a re-analysis of the deposited data

Results flagged for a closer look

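Dixon's ratio was computed for each of the 10 members in each group of 6 pigs, and 3 of these 20 groups held a pig farther from the others than Dixon's critical value for 6 samples allows. The ratio was computed on CPM and not on log2 CPM. A chance rate of about 1 in 20 such groups holds for normally distributed values, which CPM over 6 pigs need not be. The number of flags therefore cannot be set against that rate. PTGS2 was 2.91 CPM in High MB pig 2, against 1.03 CPM in the next pig of its group. PTGS2 was also high in Low MB pig 5, at 1.65 CPM against 0.566 CPM in the next. PTGIS was 48.1 CPM in High MB pig 2, against 29.1 CPM in the next. High MB pig 2 also had the highest summed macrophage markers, 151 CPM, and the lowest summed skeletal muscle markers, 37732 CPM. It stood farthest from the other pigs on the first principal component. The part of these in the values of PTGS2 and PTGIS was not tested.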

How the results depend on the processing

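The group comparison was repeated under 22 other settings. edgeR called 0 genes and 0 members under each of its settings, and DESeq2 with its defaults called 29 genes, among them 1 member, PLD2. Of 196 alternative log2 fold changes of members, 193 kept their direction and their side of the thresholds, 1 (PLD2 in DESeq2) passed them, and 2 changed sign: PTGS2 was -0.60 without High MB pig 2 and -0.60 without both High MB pig 2 and Low MB pig 4, and ranged from -0.60 to 1.23 when single pigs were left out. PLA2G10, PLD2, PTGIS and P2RX7 had an unadjusted p under 0.05 in each of the 21 edgeR alternatives, PTGS1 in 14 and PLA2G4A in 11. Leaving out each pig moved the members with an unadjusted p under 0.05 between 4 and 6, and the genes of the whole table below it between 844 and 1454. The difference between the groups (High MB minus Low MB) in the log2 ratio of PTGS2 to PTGS1 ranged from -0.77 to 0.23 when single pigs were left out.

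Pigs with the same individual number did not deviate together (correlations of -0.21 to 0.14), so the numbers were not taken as pairs. With the replicate number as a block, edgeR called 0 genes, and 957 genes had an unadjusted p under 0.05 against 1132 without it. The block also put the log2 fold change of PTGES (1.17) above that of PLA2G10 (0.96). Counts of 1 to 140 for PTGS2, 0 to 72 for PTGES and 0 to 23 for PTGDS limit what can be said of these genes, and 6 pigs a group bound the exact p at 0.00216.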
